A study of Mus musculus with 384 samples.

Results

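The liver sets the body's iron balance largely through hepcidin, and 10 genes of that system were followed here in 192 mice: the hepcidin genes Hamp and Hamp2, the upstream signals and sensors Bmp6, Hfe and Tfr2, the transferrin receptor Tfrc, the iron exporter Slc40a1, the plasma carrier transferrin (Trf) and the ferritin subunits Fth1 and Ftl1. The genes were chosen by name, and each matched 1 row among the 21454 genes of the deposited table through its Ensembl identifier in GENCODE M21. All were above 0 in every mouse and were among the 14602 genes tested.

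The mice were wild-type Diversity Outbred animals (J:DO), a stock bred from several inbred founder strains, so that each mouse carries its own mixture of founder alleles. They arrived at 3 weeks of age, were fed from weaning either standard chow, of which 6% by weight was fat, or a diet with 22% fat, and their livers were taken at 26 weeks. There were 50 F mice on chow, 48 F mice on high fat, 48 M mice on chow and 46 M mice on high fat. The labels also give an outbreeding generation, G11L1 for 97 mice and G11L2 for 95, and do not say what L1 and L2 stand for. Each of the 4 groups held both labels (25 and 25, 24 and 24, 23 and 25, 25 and 21 mice).

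Hepcidin is a small peptide hormone made by hepatocytes. It binds ferroportin, the product of Slc40a1 and the iron exporter of macrophages, enterocytes and hepatocytes, and causes its removal, so that more hepcidin means less iron entering the blood. Its transcription is driven mainly by BMP ligands, of which BMP6 from liver sinusoidal endothelial cells is the best known, through receptors that phosphorylate SMAD proteins; HFE and transferrin receptor 2 (Tfr2) add information on how much iron transferrin carries. A second control acts on RNA: iron regulatory proteins bind hairpins called iron-responsive elements, and when iron is low they block translation of ferritin and ferroportin RNA and stabilise the RNA of Tfrc.

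The Hamp and Hamp2 promoters are shown because the genes are neighbouring close copies whose sex differences, averaged over diets, had opposite signs. On high fat alone the sex difference of Hamp did not pass the test. The windows are the 250 bases before the RefSeq start on build GRCm38.p6, on the minus strand, at chr7:30944030-30944279 for Hamp and chr7:30924182-30924431 for Hamp2, written 5′ to 3′. Capitals mark GGCGCC (the core of the BMP-responsive element described for hepcidin), TTCTTGGAA (a STAT-type site), TGAGTCA (an AP-1-type site) and CAGGTG (an E-box).
Hamp: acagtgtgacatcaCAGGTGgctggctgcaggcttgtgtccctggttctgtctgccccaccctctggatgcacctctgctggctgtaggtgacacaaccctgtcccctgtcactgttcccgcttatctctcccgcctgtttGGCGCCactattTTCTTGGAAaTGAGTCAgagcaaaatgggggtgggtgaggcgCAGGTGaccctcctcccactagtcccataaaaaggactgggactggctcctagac
Hamp2: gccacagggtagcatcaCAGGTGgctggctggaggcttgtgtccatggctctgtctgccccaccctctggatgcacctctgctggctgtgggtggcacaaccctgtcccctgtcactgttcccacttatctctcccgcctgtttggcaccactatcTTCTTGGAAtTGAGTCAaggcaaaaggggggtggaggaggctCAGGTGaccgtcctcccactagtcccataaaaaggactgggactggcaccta
Of 247 aligned bases, 227 (91.9%) were identical and 20 differed. Positions below count from 1 at the first base of the Hamp window. The GGCGCC of Hamp lay at positions 142 to 147, 109 bases before the start, the substitution G145A falls within it, and the letters GGCGCC do not occur in the Hamp2 window. The TTCTTGGAA, the TGAGTCA and both CAGGTG copies were present in each promoter. Searched on both strands, GGCGCC occurred in 9.59% of 32851 promoter windows of the same length, TTCTTGGAA in 0.365%, TTCNNNGAA in 7.02%, TGAGTCA in 4.46% and CAGGTG in 17.2%. Of the other 8 genes Tfrc held GGCGCC, Hfe held TGAGTCA, and Tfrc, Fth1 and Bmp6 held CAGGTG. These are the letters of the reference strain, and the founder alleles of the mice were not analysed here.

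The second set of sequences are the iron-responsive elements, shown because they divide the genes by the kind of control that RNA levels can or cannot display. The pattern required was a 22-base stretch with a bulged C, the loop CAGTGN without a final G (capitals) and 5 base pairs in the upper stem, counting G with T as a pair. It was found in an untranslated region of 133 of 22527 coding genes (0.590%), and 4 of them were among the 10 iron genes. Fth1, Ftl1 and Slc40a1 carried 1 each in the 5′ untranslated region, the site of translational block, and Tfrc carried 4 in the 3′ untranslated region, the site of RNA stabilisation. Build and annotation are GRCm38 and GENCODE M21.
Fth1, chr19:9982733-9982754, plus strand: tcctgcttcaaCAGTGCttgaa
Ftl1, chr7:45459785-45459806, minus strand: tcttgcttcaaCAGTGTttgaa
Slc40a1, chr1:45925471-45925492, minus strand: aacttcagctaCAGTGTtagct
Tfrc, chr16:32631220-32631241, plus strand: attatcggaagCAGTGCcttcc
Tfrc, chr16:32631599-32631620, plus strand: attatcgggagCAGTGTcttcc
Tfrc, chr16:32631664-32631685, plus strand: tatatcggagaCAGTGAtctcc
Tfrc, chr16:32631711-32631732, plus strand: attatcgggaaCAGTGTttccc

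Each value is a signal, scaled by the authors so that every library has the same upper quartile. Depth estimated from the steps between low values was 9782078 to 17932064 reads per mouse (median 14191121), and the group medians ran from 13812466 to 14639380. Hepatocyte genes such as Alb (median signal 17139) dominated every library, as the tissue label says. Of the other markers, the red cell gene Epb42 and the pancreas genes Pnlip, Prss2, Cpa1 and Try4 had a median of 0. In 11 mice the summed pancreas markers exceeded 10, and 1 F chow mouse had an Xist signal of 0.361 where the next F mouse had 88.2 and the highest M mouse 2.47. Calls lost without those mice are named where they occur. The samples are whole tissue, so fewer cells of a type and less RNA per cell cannot be told apart.

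Per kilobase of exon, transferrin was the most abundant of the 10 RNAs, with a mean signal of 1080 over all mice. Ftl1 followed at 364, Hamp2 at 229, Hamp at 171 and Fth1 at 65.9. Tfr2 was at 20.3, ferroportin (Slc40a1) at 4.96, Hfe at 2.87, Tfrc at 0.890 and Bmp6 at 0.223. The 3 lowest were the receptor gene Tfrc, the sensor Hfe and the ligand Bmp6, and Bmp6 rested on an estimated median of only 53.0 reads per mouse. Within groups Hamp2 overlapped Hamp widely, and which was higher differed by sex.

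Exact read-length matches limit which genes can be told apart. No 100-base stretch of Hamp occurs in Hamp2, but 34.6% of the 30-base stretches of Hamp do. Trf shares 53.2% of its 100-base stretches with the overlapping model Gm20425, whose mean signal was 4.53 against 3586 for Trf. Ftl1 shares 44.7% with Ftl1-ps1, Gm10252 and Ftl2-ps, so its level is uncertain by however those reads were divided. The long RNA Gm44662 is annotated on the opposite strand across both hepcidin genes, and the library kit is not described as marking strand. Searched on both strands, its transcripts share 30-base stretches with Hamp2 but not with Hamp, and share no 100-base stretch with either.

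**Figure D1:**
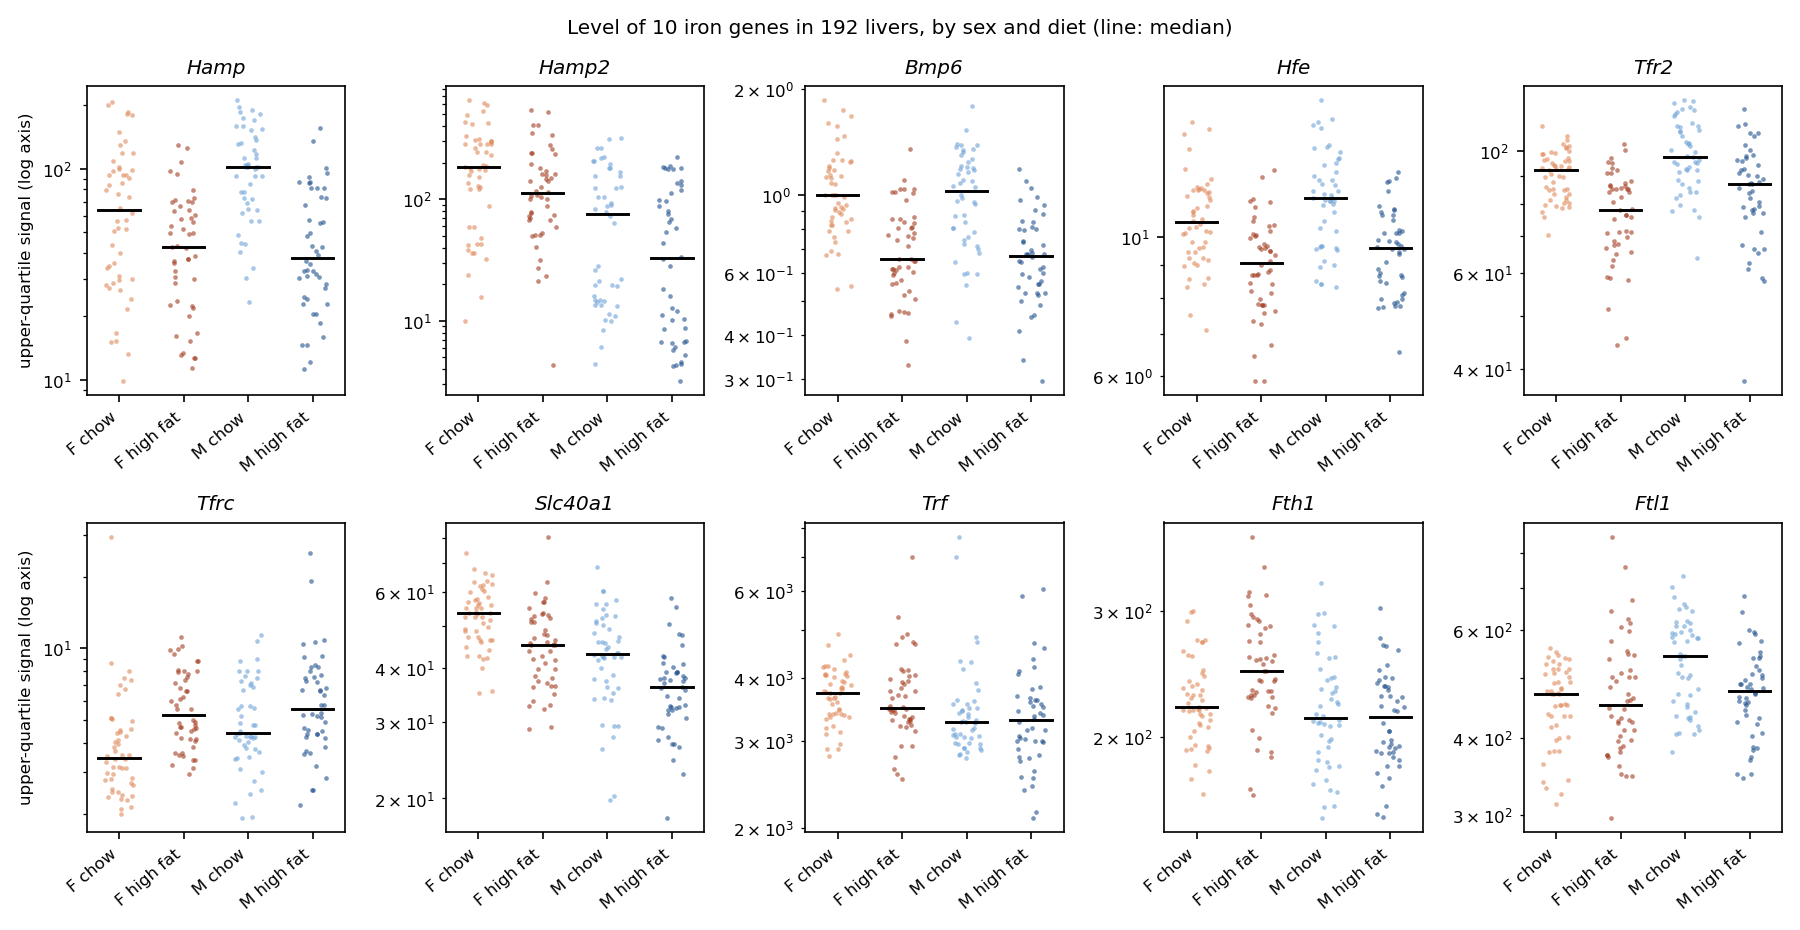
Upper-quartile signal of the 10 iron genes in each mouse (log axes), by group, with the group medians marked. Hamp2 spreads most, followed by Hamp and Tfrc (residual SD of log2 1.66, 0.86 and 0.63). Hamp is highest in M mice on chow (median 102), and Hamp2 is highest in F mice on chow (median 182).

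Hamp, the main hepcidin gene (ENSMUSG00000050440, chromosome 7, 30942368 to 30944032, minus strand), was lower on the high fat diet in both sexes. Its signal in F mice on chow was 75.8 ± 53.1 (SD, n = 50), with the lowest mouse at 9.87, the median at 63.7 and the highest at 208. In F mice on high fat it was 48.5 ± 29.3 (n = 48), from 11.4 through a median of 42.7 to 130. M mice on chow stood highest, at 106 ± 48.7 (n = 48), from 23.5 through 102 to 212. M mice on high fat had 50.0 ± 33.1 (n = 46), from 11.3 through 37.9 to 156. The groups overlapped throughout, but 44 of 46 M mice on high fat and 36 of 48 F mice on high fat lay below the median of their chow group.

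On the log2(signal + 0.0629) scale the diet difference of Hamp was -0.84 ± 0.12 (SE), a 1.79-fold lower level (limma, adjusted p = 1.72e-09). It was -1.14 ± 0.18 in M mice (adjusted p = 1.75e-08) and -0.53 ± 0.17 in F mice (adjusted p = 0.0104). The F difference alone did not pass within either generation label (-0.45 with adjusted p = 0.193 in G11L1 and -0.61 with adjusted p = 0.0723 in G11L2). The difference between the diet effects of the sexes was -0.61 ± 0.25 and missed the threshold after adjustment (adjusted p = 0.0995), with an interval from -1.10 to -0.12. M mice exceeded F mice by 0.67 ± 0.17 on chow (adjusted p = 0.000335). On high fat the difference was 0.06 ± 0.18 (adjusted p = 0.798, interval -0.29 to 0.41). Averaged over diets the sex difference of Hamp was 0.37 ± 0.12 (adjusted p = 0.00567), and it did not pass in G11L2 mice alone (0.33, adjusted p = 0.104).

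Hamp2, the neighbouring copy whose peptide differs from hepcidin (ENSMUSG00000056978, chromosome 7, 30922372 to 30924681, minus strand), was lower in M mice on both diets, the opposite of Hamp on chow. Its signal was 218 ± 166 in F mice on chow (9.99, median 182, highest 652) and 152 ± 127 in F mice on high fat (4.33, 111, 544). It was 94.1 ± 91.2 in M mice on chow (4.42, 76.1, 316) and 63.9 ± 66.8 in M mice on high fat (3.18, 32.9, 223). Each group ranged over more than an order of magnitude, and no group was separate from another. M mice were lower by a log2 difference of -1.71 ± 0.24, a 3.28-fold change (limma, adjusted p = 6.97e-11), and 39 of 48 M mice on chow and 34 of 46 on high fat lay below the F median of their diet. The diet difference of Hamp2 was -0.59 ± 0.24 (adjusted p = 0.0279) over both sexes. It passed in neither sex alone (F -0.46, adjusted p = 0.294; M -0.71, adjusted p = 0.0697). That call was lost under median-of-ratios scaling (-0.51, adjusted p = 0.0648), under quantile normalization (-0.45, adjusted p = 0.113) and within each generation label (adjusted p = 0.0589 and 0.352).

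The balance between the hepcidin genes differed between the sexes. Signals were not corrected here for exon length, 410 bases for Hamp and 583 for Hamp2. Which gene exceeds the other in a mouse carries that difference in length. The mean log2 ratio of Hamp2 to Hamp was 1.35 ± 1.63 (SD) in F mice on chow and 1.42 ± 1.09 in F mice on high fat, where Hamp2 exceeded Hamp in 42 of 50 and 45 of 48 mice. In M mice it was -0.92 ± 1.70 on chow and -0.46 ± 1.77 on high fat, and Hamp2 exceeded Hamp in 16 of 48 and 22 of 46. M mice were lower by 2.08 (two-sided permutation test, 100000 shuffles of sex within diet and generation, p = 1e-05, the smallest such a test can give). The diet difference of the ratio was 0.26 (permutation p = 0.251).

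M mice fell into separate bands. Between log2 ratios of -1.38 and -0.63 there was no M mouse; 43 of the 94 lay below that gap and 51 above it. The lower band held 22 of 48 M mice on chow (45.8%) and 21 of 46 on high fat (45.7%), and within each diet between 42.9% and 48.0% of the mice of either generation label. Of the 98 F mice, 6 lay below the lower edge, 90 above the upper edge and 2 between the edges, at -1.25 and -0.79. Split at the midpoint of the gap (-1.01), 7 F mice (7.14%) were on the lower side, 6 on chow and 1 on high fat. In the lower band of M mice Hamp exceeded Hamp2 by a median of 5.32-fold, in signal not corrected for exon length. The bands were seen in the data and are no label of the study, so nothing was tested between them.

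**Figure D2:**
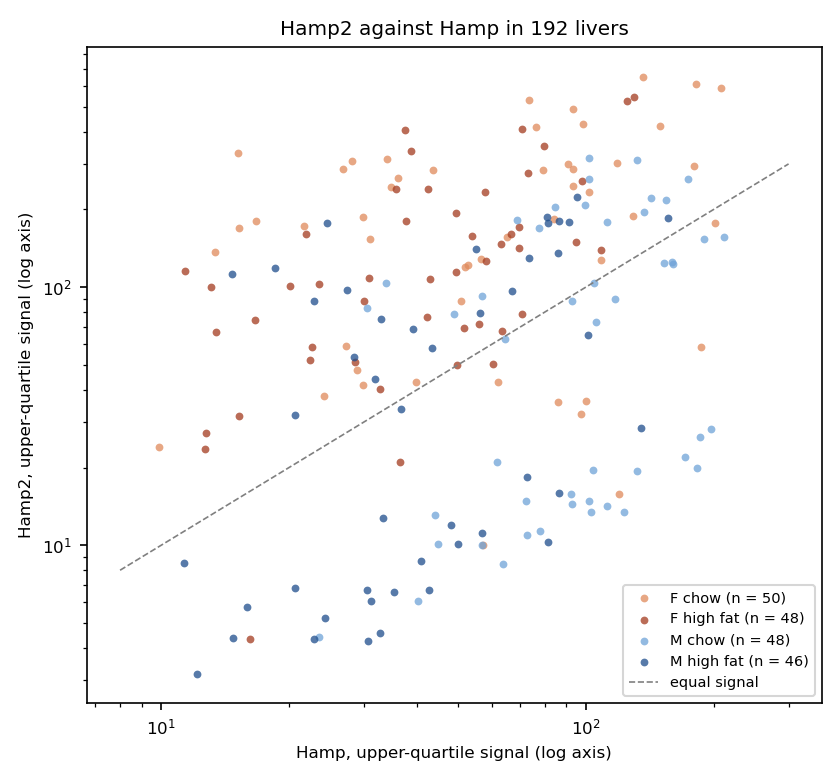
Signal of Hamp2 against Hamp in each of 192 livers on log axes, with the line of equal signal; colours give the 4 groups. A lower band of 43 M mice and 6 F mice lies below the main cloud, with Hamp2 well below Hamp, and 2 F mice lie between.

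Because of these bands no correlation of the hepcidin genes with each other over all mice is given. Within bands the residuals of Hamp and Hamp2, after group and generation means were removed, had r = 0.83 (rho 0.77) in the 43 M mice of the lower band. In the 51 M mice above the gap r was 0.53 (rho 0.51), and in the 91 F mice above its midpoint 0.51 (rho 0.45). The 7 F mice below the midpoint gave r = 0.85 (rho 0.64). These are descriptions only, since a band limits the ratio and so raises r by construction, and how reads shared by the genes were divided was not tested.

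Hamp2 also differed from Hamp in how far apart mice lay. The residual SD of log2 Hamp2 was 1.66, a size reached by 1.67% of tested genes, against 0.86 for Hamp (8.06%), 0.63 for Tfrc (15.6%) and 0.40 for Bmp6. The other 6 genes had residual SDs of 0.24 to 0.32. M mice deviated from their group median more than F mice in Hamp2, by 0.66 ± 0.15 in absolute log2 deviation (limma, adjusted p = 0.000750). It did not pass in G11L2 mice alone (0.49, adjusted p = 0.386) or on rank-based scores (0.08, adjusted p = 0.795). Deviations were taken over all mice, bands included, with 45.7% of M and 7.14% of F mice on the lower side of the gap. The part of the bands in this sex difference was not tested. A sex difference in deviation was called for 4.90% of all genes, and for 1 of the 10 iron genes. The diet gave 2.23% of all genes and, among the 10, Tfr2 (0.08 ± 0.02, adjusted p = 0.04), a call lost under 8 of the alternatives, from leaving out the 11 mice with pancreas markers (adjusted p = 0.0595) to quantile normalization (adjusted p = 0.786).

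Of the 10 genes 7 passed for diet, 1 higher and 6 lower on high fat. The share over all tested genes was 56.9%, with 15.0% higher and 41.9% lower, so a fall was the common direction. The median log2 difference was -0.24 over the 10 genes and -0.07 over all genes. Within sexes 7 genes passed in F mice (2 higher, 5 lower, where 33.3% of all genes passed) and 6 in M mice (all 6 lower, where 51.2% passed). Scaling moves the balance of directions over all genes: 2185 rose and 6125 fell here, against 3634 and 3338 under median-of-ratios scaling and 3057 and 3679 under quantile normalization.

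**Figure D3:**
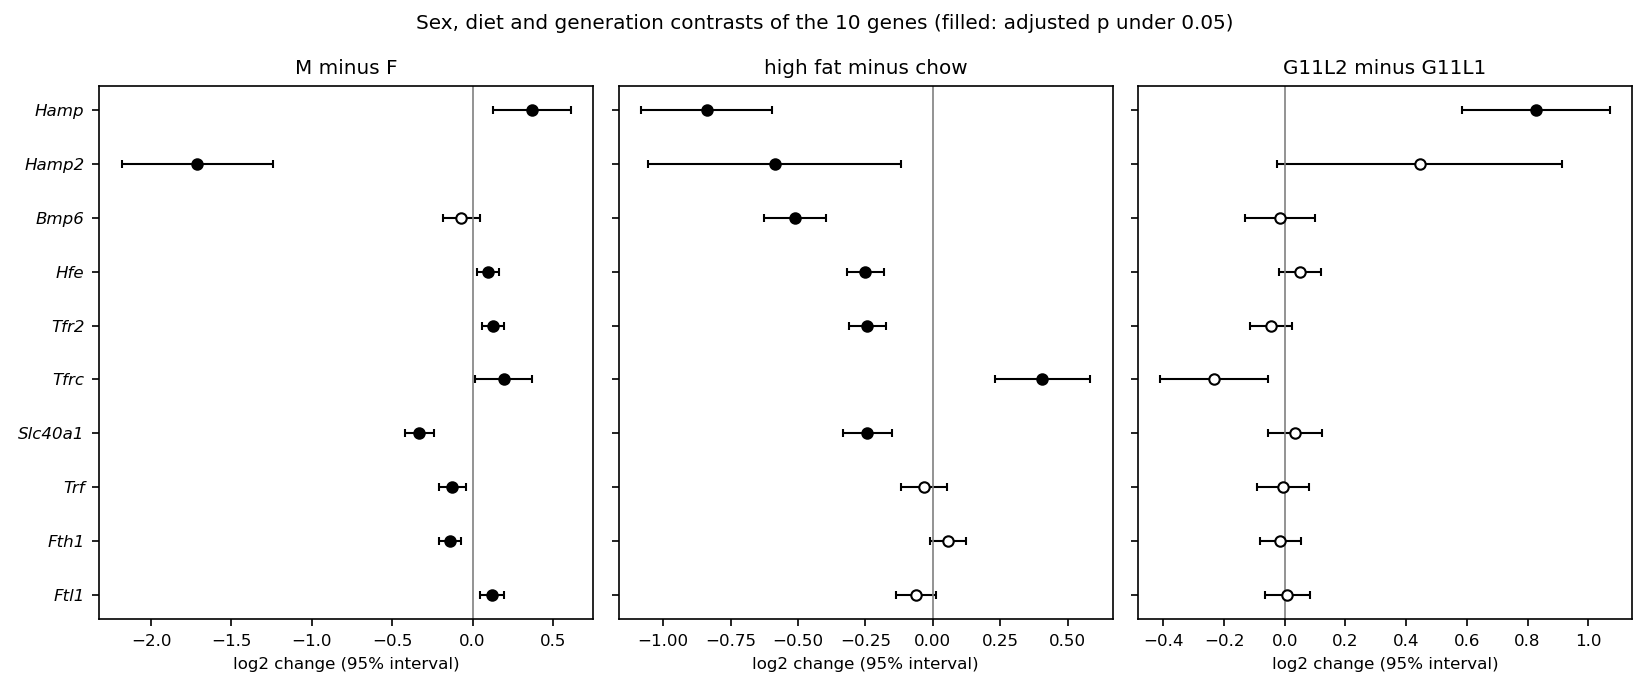
Log2 difference with its 95% interval for each of the 10 iron genes, in panels for M against F mice, high fat against chow and G11L2 against G11L1; filled points passed the test. Hamp, Hamp2 and Bmp6 fall furthest on high fat, and Tfrc rises. In the sex panel, averaged over diets, the hepcidin genes lie on opposite sides of 0.

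Bmp6, the endothelial ligand upstream of hepcidin (ENSMUSG00000039004, chromosome 13, 38345107 to 38500302), fell on high fat in both sexes. The signal was 1.05 ± 0.30 in F mice on chow (0.539, median 0.999, highest 1.86) and 0.719 ± 0.217 on high fat (0.329, 0.657, 1.35). In M mice it was 1.01 ± 0.308 on chow (0.392, 1.03, 1.79) and 0.682 ± 0.195 on high fat (0.295, 0.671, 1.19). The high fat mice lay below the chow median in 40 of 48 F and 43 of 46 M mice. The log2 difference was -0.51 ± 0.06 (limma, adjusted p = 5.31e-14), with -0.52 in F and -0.51 in M mice. The difference between those was 0.01 (interval -0.22 to 0.24). Bmp6 was the 1 gene of the 10 not called between the sexes (-0.07 ± 0.06, adjusted p = 0.276, interval -0.19 to 0.04), and under median-of-ratios scaling it passed (-0.15, adjusted p = 0.0138).

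The sensors of transferrin-bound iron moved with Bmp6 by diet. Hfe, an MHC class I-like protein (ENSMUSG00000006611, chromosome 13), had a signal of 10.7 ± 1.76 in F mice on chow, 9.11 ± 1.57 in F mice on high fat, 11.6 ± 2.05 in M mice on chow and 9.57 ± 1.47 in M mice on high fat. Its log2 diet difference was -0.25 ± 0.03 (adjusted p = 1.76e-10), and 40 of 48 F and 41 of 46 M mice on high fat lay below the chow median. Tfr2, the hepatocyte receptor that partners with HFE (ENSMUSG00000029716, chromosome 5), went from 90.7 ± 9.07 to 77.3 ± 14.0 in F mice and from 99.1 ± 14.4 to 85.1 ± 16.6 in M mice. Its diet difference was -0.24 ± 0.04 (adjusted p = 1.06e-09), and 15 of 48 F mice on high fat were below every F mouse on chow. Both were slightly higher in M mice, Tfr2 by 0.13 ± 0.04 (adjusted p = 0.000830) and Hfe by 0.10 ± 0.03 (adjusted p = 0.00940). Under median-of-ratios scaling neither sex call held (0.04 and 0.01, adjusted p = 0.265 and 0.821), and under quantile normalization Hfe changed sign (-0.0063).

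Tfrc, which takes up transferrin-bound iron and whose RNA is stabilised when cells lack iron (ENSMUSG00000022797, chromosome 16), was the gene that rose on high fat. Its signal was 4.43 ± 4.00 in F mice on chow (2.00, median 3.46, highest 29.6) and 5.89 ± 2.20 on high fat (2.95, 5.25, 11.2). M mice had 5.17 ± 2.25 on chow (1.93, 4.38, 11.3) and 6.61 ± 4.09 on high fat (2.19, 5.57, 25.3). A single F chow mouse held the highest value, yet 43 of 48 F mice on high fat exceeded the chow median. The log2 difference was 0.41 ± 0.09 (limma, adjusted p = 4.19e-05), with 0.53 in F mice (adjusted p = 0.000332) and 0.28 in M mice (adjusted p = 0.0592). The F difference was 0.46 with adjusted p = 0.0823 in G11L1 mice alone, and the M difference passed under median-of-ratios scaling (0.39, adjusted p = 0.00988) and without the highest mouse (0.28, adjusted p = 0.0435). The highest mouse had a summed signal of red cell markers of 132 against a median of 87.7, the 53rd highest. A sex difference of 0.19 ± 0.09 lay near the threshold (adjusted p = 0.0482) and was lost under 8 alternatives, among them leaving out the mouse with low Xist (adjusted p = 0.0562) or the 11 with pancreas markers (adjusted p = 0.118).

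Ferroportin, encoded by Slc40a1 (ENSMUSG00000025993, chromosome 1), was lower on high fat and lower in M mice. The signal was 53.1 ± 8.42 in F mice on chow (35.1, median 53.6, highest 73.7) and 45.4 ± 9.89 on high fat (28.9, 45.3, 80.7). In M mice it was 43.2 ± 10.5 on chow (19.9, 43.1, 68.4) and 36.0 ± 8.08 on high fat (18.0, 36.1, 58.2). Each factor shifted most mice: 41 of 48 M mice on chow and 41 of 46 on high fat lay below the F median, and 40 mice of each sex on high fat lay below the chow median. The sex difference was -0.33 ± 0.05 (adjusted p = 4.31e-11) and the diet difference -0.24 ± 0.05 (adjusted p = 1.60e-06), with -0.24 in F and -0.25 in M mice for diet (difference -0.01, interval -0.19 to 0.17). Markers of several other cell types were also lower in M mice, where 23.5% of all genes were: all 9 Kupffer cell markers (resident liver macrophages, median -0.60), all 7 lymphocyte markers (median -0.60) and 8 of 9 sinusoidal endothelial markers (median -0.20). Among the Kupffer markers were Vsig4 (-0.74 ± 0.07, adjusted p = 5.23e-18) and Clec4f (-0.54 ± 0.06, adjusted p = 6.49e-16). The summed Kupffer signal ran from 53.1 to 355 (median 108) in F mice on chow, 38.7 to 212 (115) in F mice on high fat, 31.9 to 127 (69.9) in M mice on chow and 36.4 to 197 (80.1) in M mice on high fat. The lymphocyte sums had medians of 1.32, 1.27, 0.678 and 0.658 in the same order, and the endothelial sums 124, 123, 112 and 107. The part of these cell types in the sex difference of Slc40a1 was not tested. For diet the Kupffer markers gave 3 higher and 1 lower of 9.

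Transferrin showed no diet difference that passed the test. Trf (ENSMUSG00000032554, chromosome 9) had a signal of 3714 ± 467 in F mice on chow, 3718 ± 786 in F mice on high fat, 3509 ± 944 in M mice on chow and 3388 ± 815 in M mice on high fat. The diet difference was -0.03 ± 0.04 (adjusted p = 0.539, interval -0.12 to 0.05). M mice were lower by -0.13 ± 0.04 (adjusted p = 0.00816), a call lost in G11L2 mice alone (-0.06, adjusted p = 0.556) and without the filter on low values (adjusted p = 0.0555).

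Ferritin stores iron in a shell of heavy and light chains. Fth1, the heavy chain with ferroxidase activity (ENSMUSG00000024661, chromosome 19), had a signal of 227 ± 31.6 in F mice on chow (166, median 220.1, highest 300.2) and 253 ± 44.2 on high fat (166, 248, 381). It was 220.4 ± 40.8 in M mice on chow and 214 ± 33.5 on high fat. Fth1 rose on high fat in F mice by 0.15 ± 0.05 (adjusted p = 0.00976), with 39 of 48 mice above the chow median. In M mice the difference was -0.04 ± 0.05 (adjusted p = 0.570), and it took the other sign under median-of-ratios scaling (0.07) and quantile normalization (0.17, adjusted p = 0.00825). The F difference did not pass in G11L2 mice alone (0.11, adjusted p = 0.259). The sex difference, -0.14 ± 0.03 (adjusted p = 0.000121), was -0.23 ± 0.05 on high fat (adjusted p = 2.0e-05) and -0.05 ± 0.05 on chow (adjusted p = 0.374).

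Ftl1, the light chain (ENSMUSG00000050708, chromosome 7), had a signal of 458 ± 66.3 in F mice on chow (312, median 472, highest 560) and 478 ± 112 on high fat (297, 453, 850). In M mice it was 536 ± 90.9 on chow (379, 543, 732) and 478 ± 78.0 on high fat (345, 476, 679). On chow 22 of 48 M mice were above every F mouse. Ftl1 was higher in M than F mice on chow by 0.22 ± 0.05 (adjusted p = 0.000119), which took the other sign under quantile normalization (-0.11, adjusted p = 0.102). It fell on high fat in M mice by 0.16 on the log2 scale (SE 0.05, adjusted p = 0.00760), which quantile normalization also turned (0.02, adjusted p = 0.795). So the direction of Ftl1 depends on the scaling, and its shared stretches with pseudogenes add to that limit.

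Between the sexes 9 of the 10 genes passed, 5 higher in M mice (Hamp, Tfr2, Tfrc, Hfe and Ftl1) and 4 lower (Hamp2, Slc40a1, Trf and Fth1). Over all genes 68.5% passed, 45.0% higher and 23.5% lower, so the count itself is near the background. The median was 0.01 over the 10 genes and 0.07 over all. Over all genes 6573 were higher and 3425 lower in M mice, against 4440 and 4898 under median-of-ratios scaling and 4982 and 4361 under quantile normalization. On chow 7 of the 10 genes passed (63.3% of all genes) and on high fat 5 (49.7%). None of the 10 passed the test of a difference between the diet effects of the sexes in limma, where 8.38% of all genes did. Hamp, Fth1 and Ftl1 had an unadjusted p under 0.05 there. For the ferritins that difference was -0.18 ± 0.07 for Fth1 (adjusted p = 0.0702) and -0.20 ± 0.08 for Ftl1 (adjusted p = 0.0692), and both passed with array weights (adjusted p = 0.0349 and 0.0403).

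By outbreeding generation label Hamp was the 1 iron gene of the 10 that passed. Over all genes 0.938% differed between G11L2 and G11L1 mice, 0.397% being higher in G11L2, and Hamp had the 2nd smallest p of the 14602 genes. In F mice on chow Hamp was 50.9 ± 31.8 in G11L1 (13.4, median 39.9, highest 119) and 101 ± 58.7 in G11L2 (9.87, 93.2, 208). In F mice on high fat it was 34.8 ± 17.5 (11.4, 34.6, 73.1) and 62.2 ± 32.6 (12.8, 61.8, 130). In M mice on chow it was 89.8 ± 51.1 (23.5, 72.7, 197) and 120.1 ± 42.4 (40.2, 112, 212), and in M mice on high fat 34.0 ± 19.3 (11.3, 31.3, 86.6) and 69.1 ± 36.2 (20.6, 73.6, 156). G11L2 was higher in every group, with overlap: 20 of 25, 19 of 24, 22 of 25 and 17 of 21 of its mice exceeded the G11L1 median of their group.

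The log2 difference of Hamp by generation label was 0.83 ± 0.12, or 1.77-fold (limma, adjusted p = 1.68e-06), with 0.87 in F mice alone (adjusted p = 0.0171) and 0.78 in M mice alone (adjusted p = 0.0179). Hamp2 differed by 0.45 ± 0.24 (adjusted p = 0.384, interval -0.02 to 0.92) and Tfrc by -0.23 ± 0.09 (adjusted p = 0.180). The differences of the other 7 genes lay between -0.05 and 0.05, and the sign of Trf, Fth1, Ftl1 and Bmp6 turned in some alternatives. Of 7 genes known as BMP-SMAD targets, 2 were higher in G11L2: Id1, an inhibitor of helix-loop-helix factors (0.39 ± 0.09, adjusted p = 0.0139), and Smad7, an inhibitor of the pathway (0.23 ± 0.06, adjusted p = 0.0274). Atoh8 (0.29 ± 0.08, adjusted p = 0.0612) and Id3 (0.24 ± 0.08, adjusted p = 0.0952) did not pass.

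Markers moved with the same label. Of 7 tested red cell genes 3 were lower in G11L2: Slc4a1 (-0.67 ± 0.13, adjusted p = 0.00238), Hba-a2 (-1.02 ± 0.24, adjusted p = 0.0172) and Hbb-bt (-0.78 ± 0.21, adjusted p = 0.0349). Without the 11 mice with pancreas markers Hbb-bt did not pass (-0.72, adjusted p = 0.0668). The summed red cell signal ran from 15.8 to 621 (median 101) in G11L1 and from 7.19 to 555 (79.0) in G11L2. Of 9 sinusoidal endothelial markers Kdr (-0.16 ± 0.03, adjusted p = 0.00397) and Stab1 (-0.15 ± 0.04, adjusted p = 0.0343) were lower, and the sum ran from 79.5 to 155 (median 121) and from 70.3 to 153 (113). None of the Kupffer, stellate, hepatocyte, lymphocyte or pancreas markers passed. The 6 tested pancreas markers still had a median difference of 0.86, with Cela2a at 0.91 ± 0.26 (limma, adjusted p = 0.0581). Their summed signal ran from 0 to 72.8 (median 0.0895) in G11L1 and from 0 to 945 (0.132) in G11L2. The part of these markers in the Hamp difference was not tested, and any handling shared by mice of 1 label cannot be told apart from it.

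**Figure D4:**
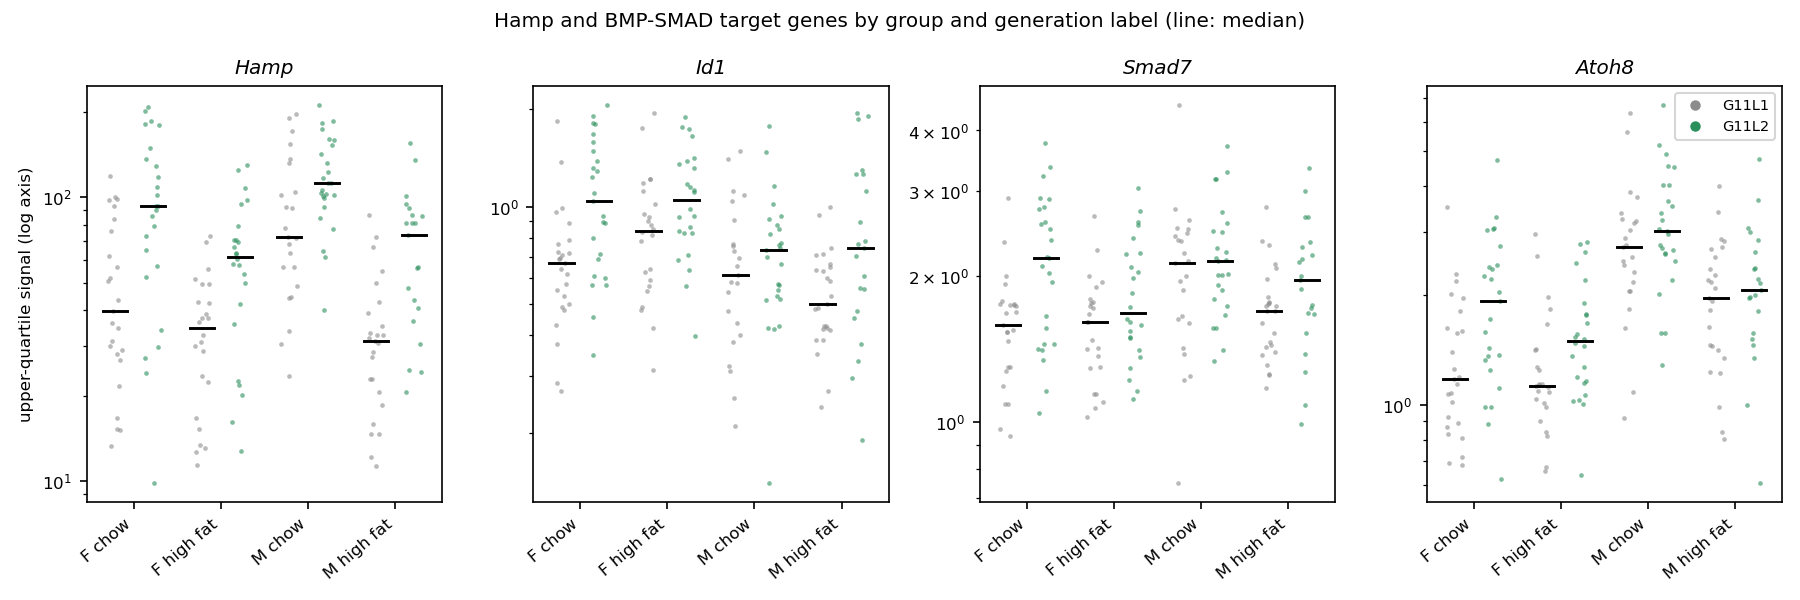
Signal of Hamp and of the BMP-SMAD targets Id1, Smad7 and Atoh8 in each mouse (log axes), by group and outbreeding generation label, with medians marked. In each of the 4 groups the G11L2 median of Hamp is above that of G11L1, for example 93.2 against 39.9 in F mice on chow.

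Other genes of the pathway were counted in lists named for their roles, which hold none of the 10 genes. Of 19 tested genes of hepcidin control, 15 were lower and 3 higher on high fat (median -0.17, against -0.07 over all genes, of which 41.9% were lower and 15.0% higher). Among the falls were Smad9 (-1.27 ± 0.15, adjusted p = 8.39e-13), a receptor SMAD, and Smad4, the common SMAD partner (-0.24 ± 0.02, adjusted p = 6.10e-16). The type II receptor gene Acvr2a (-0.25 ± 0.03, adjusted p = 1.74e-13) and Smad5 (-0.20 ± 0.02, adjusted p = 1.72e-12) fell as well. Between the sexes 12 were higher and 2 lower in M mice, where 45.0% of all genes were higher and 23.5% lower on this scaling. Smad9 was higher in M mice by 1.96 ± 0.15 (adjusted p = 7.95e-26), and its mean signal by group ran from 0.272 in F mice on high fat to 2.73 in M mice on chow. Hemojuvelin, a BMP co-receptor listed as Hfe2, was higher by 0.34 ± 0.05 (adjusted p = 7.42e-10) and its partner neogenin, Neo1, by 0.19 ± 0.03 (adjusted p = 5.90e-10). Fgl1, a secreted protein that binds BMP ligands, was lower by -0.95 ± 0.14 (adjusted p = 3.23e-10). By diet Hfe2 ran against the falls named above. Its mean signal was 9.92 on chow and 12.5 on high fat in F mice, and 12.7 and 15.5 in M mice.

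Of the 7 BMP-SMAD targets, 3 fell on high fat and none rose, a share of falls near the 41.9% of all genes. They were Id2 (-0.36 ± 0.07, adjusted p = 2.33e-06), Atoh8 (-0.33 ± 0.08, adjusted p = 0.000343) and Smad7 (-0.15 ± 0.06, adjusted p = 0.0261). Between the sexes 4 were higher and 2 lower in M mice, where 45.0% of all genes were higher and 23.5% lower. Atoh8, a transcription factor that binds the hepcidin promoter, was higher by 0.69 ± 0.08 (adjusted p = 1.78e-13) and Id2 by 0.40 ± 0.07 (adjusted p = 7.28e-08). Id1 was lower by -0.40 ± 0.09 (adjusted p = 2.48e-05) and the inhibitor Smad6 by -0.27 ± 0.06 (adjusted p = 1.88e-05).

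Of 11 genes of iron uptake and reduction, 5 fell on high fat and none rose, again near the background of 41.9%. They included the metal importers Slc39a8 (-0.25 ± 0.03, adjusted p = 1.51e-11) and Slc39a14 (-0.20 ± 0.05, adjusted p = 0.000921), the haem-hemopexin receptor Lrp1 (-0.28 ± 0.04, adjusted p = 5.77e-10) and the ferrireductase Steap2 (-0.64 ± 0.12, adjusted p = 2.79e-06). The divalent metal transporter Slc11a2 was 1.67-fold higher in M mice (0.74 ± 0.05, adjusted p = 2.32e-30), as was Steap4 (0.39 ± 0.08, adjusted p = 5.06e-06), while Steap2 was lower (-0.58 ± 0.12, adjusted p = 1.33e-05). Of 15 genes of export, storage and haem recycling, 6 fell and 3 rose on high fat, with falls near the same background. In M mice 8 of the 15 were higher and 4 lower, where 45.0% of all genes were higher and 23.5% lower. The haptoglobin-haemoglobin receptor Cd163 fell on high fat (-0.59 ± 0.12, adjusted p = 5.45e-06), as did the ferritin receptor for lysosomal breakdown Ncoa4 (-0.17 ± 0.04, adjusted p = 0.000200). Of 4 genes of iron sensing, 3 fell on high fat, among them Ireb2, an iron regulatory protein (-0.16 ± 0.03, adjusted p = 2.51e-05), and Aco1, the other one (-0.09 ± 0.03, adjusted p = 0.00864), whose sign turned under quantile normalization (0.05).

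Hepcidin also responds to inflammation through STAT3, so 15 acute phase genes were counted. On high fat 4 rose and 6 fell, where 15.0% of all genes rose and 41.9% fell. In M mice 10 were higher and none lower, where 45.0% of all genes were higher. The fibrinogen genes fell on high fat, Fga by 0.43 on the log2 scale (SE 0.06, adjusted p = 5.54e-11), and were higher in M mice (Fga 0.33 ± 0.06, adjusted p = 7.58e-08), although quantile normalization turned that sex difference (-0.16). Beside the diet contrast, 5 of 9 stellate cell markers rose, led by Col1a1 (1.04 ± 0.11, adjusted p = 6.78e-15), and 6 of 9 hepatocyte markers fell, among them Cps1 (-0.52 ± 0.06, adjusted p = 4.94e-14). In M mice alone, where Hamp fell by 1.14 on the log2 scale, 4 of 7 red cell markers rose on high fat and 1 fell (median 0.67), among them Hba-a2 (0.89 ± 0.35, adjusted p = 0.0238), and 4 of 9 Kupffer markers rose and 1 fell (median 0.24). Over all genes 51.2% passed in M mice, in either direction. In F mice, where the Hamp difference was -0.53, 0 red cell markers rose and 1 fell (median -0.16). Of the Kupffer markers 0 rose and 3 fell in F mice (median -0.15), where 33.3% of all genes passed. The summed red cell signal of M mice ran from 11.8 to 621 (median 79.9) on chow and from 9.67 to 555 (101) on high fat. The summed hepatocyte signal ran from 15595 to 40672 (median 27319) in F mice on chow, 15513 to 63222 (23450.4) in F mice on high fat, 15925 to 35804 (24757) in M mice on chow and 11294 to 40116 (19884) in M mice on high fat. The part of these markers in the diet falls of the iron genes was not tested.

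Mice of the same sex, diet and generation label still differed in their iron genes, and the residuals after those means were removed show which genes varied together. Values below are Pearson r over 192 mice, which share the normalization and depth of their libraries. A pair was called when limma passed in both directions over all tested genes. Of 45 pairs 9 were called. The hepcidin pair is described above by band, and the next paragraph leaves Hamp2 out for the same reason. The other 8 had permutation p-values of at most 0.0024 for r and 0.00774 for rho, kept their sign without the 2 most extreme mice, and then moved by at most 0.0446.

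Fth1 and Ftl1 varied together most (r = 0.57, rho 0.54), with r from 0.38 to 0.66 in the 4 groups. Hfe followed both ferritins (r = 0.38 with Fth1 and 0.32 with Ftl1). Slc40a1 rose with Bmp6 (r = 0.35) and with Tfr2 (r = 0.22), and Tfr2 with Trf (r = 0.28). Tfrc rose with Fth1 (r = 0.31) and ran against Slc40a1 (r = -0.31), from -0.67 in F mice on chow to -0.09 in M mice on chow. Hamp itself was called with none of the 8 remaining genes, where 1.43% of all genes were called with it in 1 direction. Its nearest values were r = 0.23 with Bmp6 (permutation p = 0.00117) and -0.20 with Tfrc (permutation p = 0.00741), and each passed limma in 1 direction only.

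**Figure D5:**
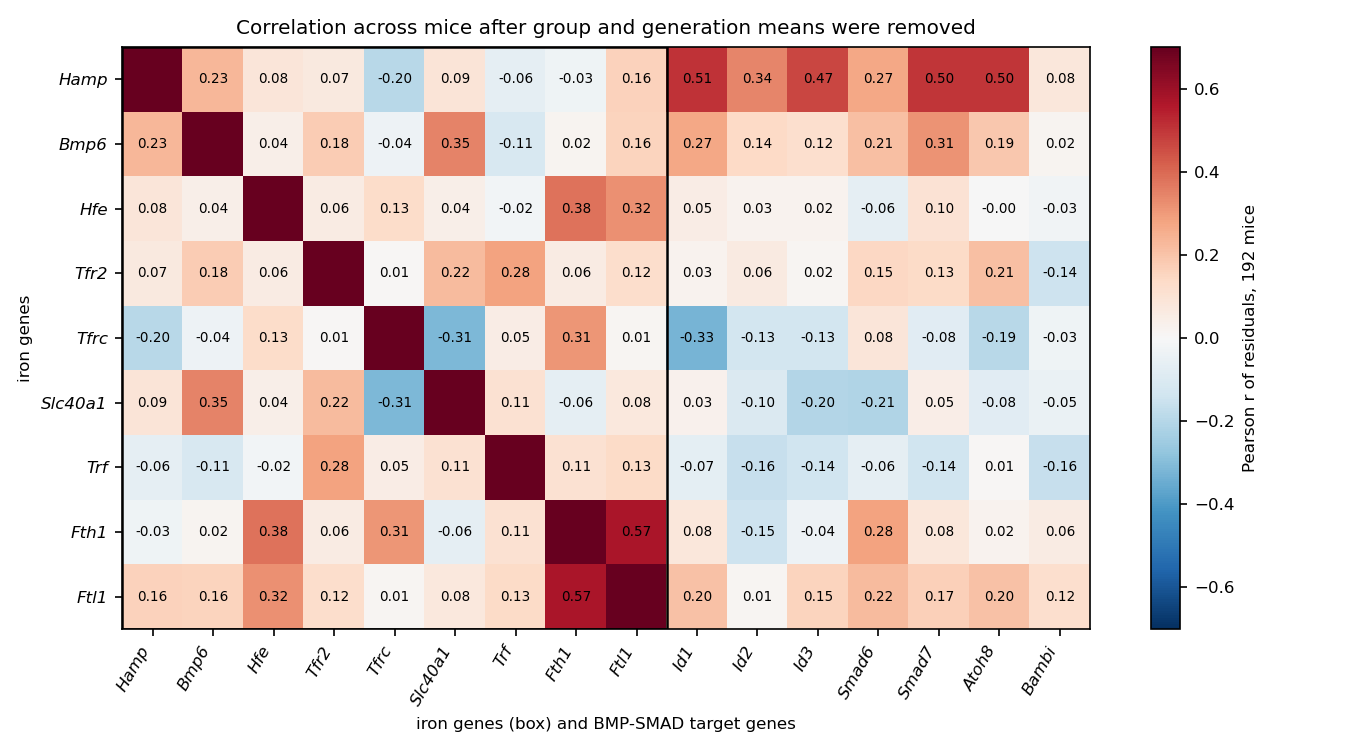
Pearson r of residuals over 192 mice among 9 iron genes (box) and between them and 7 BMP-SMAD target genes, Hamp2 being left out because of its bands. The row of Hamp is pale against the iron genes and red against Id1, Smad7, Atoh8 and Id3.

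Hamp varied with most of the BMP-SMAD targets. From here on a call rests on limma in 1 direction only, in which every other gene was fitted on the residual of the iron gene. In that direction Bmp6 (limma, adjusted p = 0.0649) and Tfrc (adjusted p = 0.119) did not pass with Hamp. Of the 7 targets, 6 were called: Id1 (r = 0.51, rho 0.54), Smad7 (0.50), Atoh8 (0.50), Id3 (0.47), Id2 (0.34) and Smad6 (0.27). The first 3 were also the genes most like Hamp among all eligible genes. In the 4 groups r with Id1 was 0.53, 0.53, 0.62 and 0.38 and with Smad7 0.54, 0.45, 0.54 and 0.47, so r was positive in every group. With Smad6 r was -0.0019 in F mice on high fat, and its call was lost without the 11 mice with pancreas markers (r = 0.27, adjusted p = 0.0521). Bambi was not called (0.08). For Hamp2 none of the 7 targets was called over all mice, a count that includes the bands. Within its bands, r of Hamp2 with Id1 was 0.42 in the 43 M mice below the gap, 0.22 in the 51 above it and 0.21 in the 91 F mice above its midpoint. The corresponding values of Hamp with Id1 were 0.47, 0.56 and 0.52.

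Among other genes, 5 of 9 Kupffer markers were called with Hamp, all negative, with Adgre1, which encodes the macrophage antigen F4/80, at r = -0.33 (permutation p = 1e-05). The gene most opposed to Hamp was Tlr13, a sensor of bacterial RNA (r = -0.39). None of the 15 acute phase genes was called with Hamp; Saa1 had r = -0.07. The red cell gene Slc4a1, near the floor with a median signal of 0.058, had r = -0.27 (limma, adjusted p = 0.0303). The non-coding neighbour Gm4673 on the opposite strand had r = 0.57 with Hamp, chosen after its value was seen.

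Over all mice, bands included, 6.15% of all genes were called with Hamp2. Of the 25 genes most correlated with it, 16 lay within 10 Mb of it on chromosome 7, where 1.49% of the genes tested for position lie, against 3 of 25 for Hamp. These values carry the bands, and within the bands of M mice the leading gene was nearly uncorrelated. It was Tmem147, a membrane protein gene 0.195 Mb away. Within bands its r with Hamp2 was 0.62 in the 91 F mice above the midpoint of the gap, 0.13 in the 51 M mice above the gap and -0.0054 in the 43 M mice below it. Pepd, a dipeptidase gene 3.99 Mb away, had r = 0.34, 0.16 and 0.23 in those mice. Paf1 at 2.53 Mb and Nudt19 at 4.62 Mb, the latter negative, completed the named genes.

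The genes most like Bmp6 were endothelial in part. They were Bmp2, the other endothelial ligand of hepcidin control (r = 0.50), Eng, a BMP co-receptor (0.48), and Itpkb (0.48). With Bmp6 14.3% of all genes were called, including 6 of 9 sinusoidal endothelial markers, all positive, 3 of 7 BMP-SMAD targets, all positive (Smad7 0.31, Id1 0.27, Smad6 0.21), and 13 of 15 acute phase genes, all negative. Lcn2 had r = -0.40 with Bmp6 and Saa1 -0.31, and the lowest gene was Steap4 (-0.41). Bmp2 had mean signals of 5.14 and 4.28 in F and 4.44 and 3.79 in M mice on chow and high fat.

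Slc40a1 was called with 18.6% of all genes and with all 9 Kupffer markers, positively, from 0.19 for C1qa to 0.38 for Cd163. Of 9 sinusoidal endothelial markers 5 were called with it, also positively, among them Oit3 (0.34), Fcgr2b (0.30) and Kdr (0.28). Its closest gene was Mrc1, the mannose receptor of macrophages and sinusoidal endothelium (r = 0.57), followed by Ldlrad4 (0.52) and Pcf11 (0.48), and Mybbp1a was the most opposed (-0.52). Of 15 acute phase genes 7 were called, all negative.

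Fth1 and Ftl1 ran the other way with the same macrophage markers: 8 of 9 were called with each, all negative, with Adgre1 at -0.36 for both. For Fth1 30.1% and for Ftl1 33.2% of all genes were called. The genes most like Fth1 were Cox8a (0.66), a subunit of cytochrome oxidase, Abhd17a (0.63) and Gpx4 (0.62), and the most opposed Nrp1 (-0.48). Those most like Ftl1 were Cox6a1 (0.67), also of cytochrome oxidase, Atp5d (0.63) and Aes (0.63), and the most opposed Nedd9 (-0.43). The haem transporter Slc48a1 varied with each (0.53 with Fth1 and 0.58 with Ftl1).

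Tfr2 was called with 51.3% of all genes, so single relations say little. Its closest were the plasma protein genes Plg (0.78) and Vtn (0.73) and Aspdh (0.70), and the most opposed Anxa2 (-0.65). Tmprss6, the protease that restrains hepcidin, had r = 0.60 with Tfr2. Trf was called with 4.49% of all genes and was most like the acute phase and plasma protein genes Cp, the ferroxidase ceruloplasmin (0.58), Hpx, which binds haem (0.56), and Lbp (0.55). Haptoglobin, Hp, had 0.55, 8 of 15 acute phase genes were called with Trf, all positive, and Phactr2 was the most opposed (-0.32).

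Tfrc was called with 15.0% of all genes, among them Uap1 (0.49), Mmgt1 (0.48) and Chordc1 (0.47) as the closest and Leprot (-0.39) as the most opposed. It ran against Id1 (-0.33) and with the importer Slc11a2 (0.36), a transferrin-cycle partner. Of 7 red cell markers 1 was called with Tfrc, the haem synthesis enzyme Alas2 (0.27), and the median r of the 7 was 0.05. Hfe was called with 9.04% of all genes, led by Selenbp1 (0.51), Cyb5b (0.45) and Entpd5 (0.45). The gene most opposed to Hfe was Carmil1 (-0.39), which lies 0.310 Mb away on chromosome 13. The 40 named relations of this kind included 4 of Hamp2 over all mice, had permutation p-values of at most 6e-05 for r, and kept their sign without the 2 most extreme mice.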

How the data were processed

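RNA was prepared with Trizol Plus, polyadenylated-RNA libraries followed the TruSeq standard protocol, and reads were single-end of 100 bases in 2 technical repeats per mouse on randomly assigned lanes, per the labels' protocols. The authors deposited 1 column per mouse for 192 mice, with values normalized to the upper quartile (a signal, not counts). CASAVA 1.8.0, GRCm38 and mm10 are named in the submitters' processing notes; aligner, counting tool and annotation are not given in the sources used here. Of 21454 identifiers 21022 matched GENCODE M21 and 432 did not. Low values gave an estimated 9782078 to 17932064 reads per mouse. A tolerance of 0.1 read made only 61.4% to 82.5% of the values up to 100 reads whole (median mouse 80.5%), so reads were not recovered, no count test was run, and precision rests on the number of mice.

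Genes above 0 in at least 46 mice with a mean of at least the pseudocount were tested as log2(signal + 0.0629), where 0.0629 is 1/100 of 6.29, the median upper quartile of values above 0. Folds on this scale understate changes of low genes. limma 3.58.1 (R 4.3.3) fitted 4 group means, the generation label and a mean-variance trend, with Benjamini-Hochberg adjustment over 14602 genes and calls at 0.05. Spread was tested by the same fit on absolute deviations from the group median. Relations used residuals, with limma over all genes and 100000 shuffles within group and generation label, and 112 relations were computed. The fit was tested on simulated data. Named were all 10 genes, up to 4 list genes with the smallest p per contrast, and for each of the 10 the 3 highest and 1 lowest r among annotated genes with a mean of at least 10 pseudocounts, predicted genes and pseudogenes left out; further list genes printed with an r, and the bands of the hepcidin ratio, were chosen after their values were seen. The gap was the widest between M mice with at least 10 mice on each side, and its midpoint split the F mice. The genes and lists were chosen with earlier results of these data known.

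An F and an M mouse shared each of 92 mouse numbers, diet and label. Residuals of same-numbered mice had a median correlation of 0.00307 (-0.178 to 0.316, above 0.1 in 9 of 92), so numbers were not treated as pairs. Alternatives were other pseudocounts, filters, scalings, weights, generation labels, sexes or groups alone, and leaving out mice, the last chosen after seeing the data. The labels name separate mice, so p-values measure the spread between animals. Promoters are RefSeq windows (GRCm38.p6), aligned with Biopython 1.88. The promoter window of each of the 10 genes was searched.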

Additional observations from a re-analysis of the deposited data

How the results depend on the processing

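With the mouse number as a replicate block the counts of called genes were 9 for sex, 7 for diet, 0 for the interaction, 1 for generation, 2 for spread and 9 pairs, the same as without it. The numbers were not treated as pairs, and low residual correlations cannot show that same-numbered mice are unrelated. The count for sex was 4 in G11L2 mice alone. The interaction count was 2 with array weights and 2 without the 10 mice least alike the others. The spread count was 1 with a pseudocount 10 times smaller, median-of-ratios scaling, array weights, G11L1 mice alone or without mice with pancreas markers, 4 with quantile normalization, and 0 on rank-based scores and in G11L2 mice alone. Called pairs numbered 2 in G11L1 mice, 1 in F mice on chow, 2 in F mice on high fat, 4 in M mice on chow, 1 in M mice on high fat, and 22 from pooled log2 values. Smaller groups hold fewer mice; the cause of the other changes was not tested.

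Signs turned as follows. Under quantile normalization the sex difference was -0.0063 for Hfe, -0.20 for Ftl1, -0.16 for Fga, -0.16 for Fgb and -0.054 for Fgg; on chow it was -0.11 for Ftl1, and on high fat -0.30 for Ftl1 and -0.0069 for Tfrc. The diet difference there was 0.12 for Ftl1, 0.054 for Aco1, 0.040 for Fbxl5 and 0.012 for Pcbp1, and in M mice 0.17 for Fth1 and 0.024 for Ftl1. Under median-of-ratios scaling it was 0.045 for Trf, 0.017 for Ftl1, 0.027 for Fbxl5 and, in M mice, 0.074 for Fth1; the sex difference of Ftl1 on high fat was -0.040, and without the 10 least alike mice -0.0058. In G11L2 mice alone the diet difference of Trf was 0.00033 and the sex difference of Tfrc on high fat -0.13; in G11L1 mice that of Hamp was -0.043. The generation difference turned in M mice for Trf (0.062) and Ftl1 (-0.030), in F mice for Fth1 (0.031), for Ftl1 without pancreas-marker mice (-0.0059), and for Bmp6 with array weights (0.00074) and without the 10 least alike mice (0.020). In groups fitted alone, r turned for Hamp and Tfrc in F mice on chow (0.017), Tfr2 and Bmp6 in M mice on chow (-0.0079), and in F mice on high fat for Hamp with Smad6 (-0.0046) and Bambi (-0.15).

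These counts over all genes moved by over 1.5 times. For spread, sex gave 715 genes, from 165 on rank-based scores to 1205 without a filter, and diet 325, from 29 in G11L2 mice alone to 576 with a pseudocount 10 times larger. Diet in F mice gave 4860 genes, 2348 in G11L1 and 2432 in G11L2 mice alone. Diet in M mice gave 7479, 4906 under quantile normalization and 4930 in G11L2 mice alone, and sex on high fat 7263 and 4748 in G11L2 mice alone. The generation label gave 137 genes, 262 under median-of-ratios scaling, 254 under quantile normalization, 344 with array weights, 18 in F and 5 in M mice alone. The interaction gave 1223 genes, 617 under median-of-ratios scaling, 633 under quantile normalization, 546 in G11L1 mice alone and 54 in G11L2 mice alone; the cause was not tested. Bmp6 rests on an estimated median of 53.0 reads per mouse, the fewest of the 10 genes.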
